A study of Mus musculus with 18 samples.

Results

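*Nprl2*, *Nprl3* and *Depdc5* encode the subunits of Gator1. *Tsc1*, *Tsc2* and *Tbc1d7* encode the subunits of the Tsc complex, and *Mtor*, *Rptor* and *Mlst8* those of mTORC1. The products of *Mtor* and *Mlst8* are also part of mTORC2, the other mTOR complex. The study cites earlier work in which Mlst8 was needed for mTORC2 and not for mTORC1. *Rheb*, the small GTPase between the Tsc complex and mTORC1, completes the set. These 10 genes were taken by symbol from the deposited table of TPM, a transcript level scaled to transcript length and library depth, which lists 24369 gene symbols, and all 10 were found. Their 29 transcripts were then read from the tables of the individual libraries, with 7 for *Tsc2*, 4 each for *Nprl3* and *Mlst8*, and 1 each for *Nprl2*, *Rheb* and *Mtor*.

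On GRCm38, the Gator1 genes lie at chr9:107542177-107545706 (*Nprl2*), chr11:32231963-32267707 (*Nprl3*) and chr5:32863646-32994233 (*Depdc5*). The Tsc genes lie at chr2:28640993-28691172 (*Tsc1*), chr17:24595816-24632676 (*Tsc2*) and chr13:43151740-43171501 (*Tbc1d7*), and *Rheb* at chr5:24802823-24842361. The mTORC1 genes lie at chr4:148448582-148557685 (*Mtor*), chr11:119602905-119899591 (*Rptor*) and chr17:24473550-24479114 (*Mlst8*). Each level is for the whole gene, summed over its transcripts, unless a form is named.

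The libraries came from E14 mouse embryonic stem cells (mESCs) in a study of genes that maintain or dissolve naive pluripotency. All 18 libraries carried the Rex1GFPd2 reporter, a short-lived GFP read out from the *Zfp42* (*Rex1*) locus, together with a Cas9 transgene. Of these, 6 libraries were from sorted GFP+ cells, with 2 each of wild-type (Rex1GFPd2-Cas9), *Nprl2* KO (Rex1GFPd2-Cas9 Nprl2-/-) and *Tsc2* KO (Rex1GFPd2-Cas9 Tsc2-/-) mESCs. The other 12 were from wild-type Rex1GFPd2-Cas9 mESCs at days 0, 1, 2 and 3 of differentiation, with 3 libraries per day.

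The KO lines were made by removing an exon on both alleles with a pair of guide RNAs in the introns beside it, and were grown from picked clones. The study kept its mESCs on feeder fibroblasts in serum and LIF, and its differentiation medium was NDiff227 without LIF and without the inhibitors used for naive culture. The medium in which the day 0 cells of the time course had been kept is not given in the sources used here. The labels do not say whether the libraries of a genotype or day came from separate clones or cultures, so every p-value measures only the spread between these libraries. Total estimated counts lay between 8610357 and 13780861 in GFP+ libraries and between 12503005 and 15305054 in the time course.

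mTORC1 is a protein kinase complex at the lysosome that drives protein synthesis and growth and holds back autophagy. Amino acids reach it through the Rag GTPases, which recruit it to the lysosome, and Gator1 switches the Rag GTPases off. Growth factors and energy reach it through Rheb, which activates its kinase, and the Tsc complex switches Rheb off. Loss of either Gator1 or the Tsc complex therefore releases a brake on the same kinase, and in mESCs inhibition of mTOR is known to bring about a reversible pause of growth.

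The cells were checked against markers of the labelled cell type. *Pou5f1*, a core pluripotency factor, was between 1591 and 1905 TPM in the GFP+ libraries, and *Zfp42*, which carries the reporter, was between 416 and 885 TPM. From day 0 to day 3 of the time course *Zfp42* went from 726 to 804 TPM down to 11.3 to 14.4 TPM. Of 8 markers of feeder fibroblasts, the summed level was 109.6 to 155.8 TPM in wild-type and 114.6 to 120.2 TPM in *Nprl2* KO libraries, with 40.18 to 140.3 TPM in *Tsc2* KO, of which *Col1a1* made up 52 to 70.7, 54.7 to 55.4 and 15 to 60.3 TPM. In these libraries *Lum* was at most 0.171 TPM and *Dcn* at most 1.1 TPM. In the time course the summed level was 9.733 to 17.41 TPM at day 0 and 34.35 to 43 TPM at day 3, with 4 of the 7 tested higher and 3 lower. *Thy1* went from between 3.06 and 5.57 TPM to between 26.8 and 33.3 TPM, and *Col1a1* from between 2.98 and 6.59 TPM to between 1.03 and 1.25 TPM. In bulk RNA, fewer cells of a type and less RNA per cell cannot be told apart.

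The transcripts of *Tsc2* and *Depdc5* differ within their coding sequences, and the stretches where they part are shown because the shares of these forms are described further on. A 129-base exon of *Tsc2*, at chr17:24606224-24606352 on the minus strand of GRCm38, is in 4 of the 7 listed transcripts, and a 69-base exon at chr17:24601389-24601457 is in 2 of 7. Both lengths are whole numbers of codons, 43 and 23, so skipping either keeps the reading frame. *Depdc5* has 2 long forms of 1591 and 1530 codons and a short form of 1085 codons, which ends in a last coding exon of its own at chr5:32956129-32956155 on the plus strand, where the long forms go on to the exon that begins at chr5:32959281. In the *Tsc2* lines the capitals are the exon and the lower case letters are the 15 transcript bases on either side. In the *Depdc5* lines the lower case letters are the 24 bases that the forms share, and the capitals are the 27 bases where they part, with the stop codon at the end of the short form.
Tsc2 129-base exon: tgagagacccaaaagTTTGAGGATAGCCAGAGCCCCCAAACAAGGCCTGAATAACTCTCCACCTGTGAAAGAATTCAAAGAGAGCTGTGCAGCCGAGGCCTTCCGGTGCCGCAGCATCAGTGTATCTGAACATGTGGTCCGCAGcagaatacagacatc
Tsc2 69-base exon: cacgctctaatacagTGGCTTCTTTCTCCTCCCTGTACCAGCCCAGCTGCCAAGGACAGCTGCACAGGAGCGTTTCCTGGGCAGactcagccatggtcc
Depdc5 short form: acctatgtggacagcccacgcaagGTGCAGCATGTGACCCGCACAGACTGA
Depdc5 long forms: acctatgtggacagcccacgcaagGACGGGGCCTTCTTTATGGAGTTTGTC

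TPM corrects for transcript length, so levels can be set side by side between genes. *Rheb* stood highest at every day and in every genotype, with a mean of 103 TPM ± 4.76 (SD, n = 3) at day 0, where 87.7% of the 13211 genes with a mean of at least 1 TPM lay below it. *Tsc2* came next at day 0 with 52.1 TPM ± 4.51 (SD, n = 3), and no library of *Tsc2* overlapped a library of *Rheb* or *Mtor*. *Mtor* and *Rptor* followed at 26.8 and 26.2 TPM and could not be separated by their libraries.

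Below them at day 0, *Depdc5*, *Nprl2*, *Tbc1d7*, *Mlst8* and *Tsc1* ran from 20.5 down to 13.4 TPM, and each overlapped its neighbour in that order. *Nprl3*, which forms a dimer with *Nprl2*, was the lowest at 8.65 TPM ± 0.641 (SD, n = 3) and did not overlap *Tsc1*. Some subunits of 1 complex were at unequal RNA levels, while others had ratios near 1. The mean of the TPM ratio *Tsc2*/*Tsc1* was 3.91 ± 0.427 and that of *Nprl3*/*Nprl2* was 0.429 ± 0.0224 at day 0 (SD, n = 3 each), whereas *Depdc5*/*Nprl2* was 1.02 ± 0.0499 and *Rptor*/*Mtor* 0.976 ± 0.0482. By day 3 the order was *Rheb*, *Tsc2*, *Mtor*, *Tbc1d7*, *Rptor*, *Depdc5*, *Nprl3*, *Mlst8*, *Nprl2* and *Tsc1*, and the neighbours from *Mtor* to *Depdc5* overlapped, as did those from *Nprl3* to *Tsc1*.

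The time course asks how RNA of the members moved while wild-type cells left naive pluripotency. From day 0 to day 3, 7 of the 10 members passed the test of edgeR (adjusted p under 0.05), 4 higher and 3 lower. Of all 14382 genes tested 70.9% passed, 35% higher and 35.9% lower. *Tsc2* and *Nprl2* fell, *Nprl3* rose, and *Depdc5*, *Tbc1d7*, *Rheb* and *Rptor* moved by less, while *Mtor* passed in none of the 4 comparisons between days. The changes were small beside those of other genes, with a median absolute log2 fold change of 0.21 over the members and 0.51 over all genes tested. The comparisons between days share libraries, so they are not independent of each other.

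Within Gator1, *Nprl2* and *Nprl3* went in opposite directions. *Nprl2*, which supplies the catalytic residue by which Gator1 switches the Rag GTPases off, had 19.5, 19.8 and 21.2 TPM at day 0, 15.4, 15.2 and 16.2 TPM at day 1, 12, 12.1 and 13.7 TPM at day 2, and 14.3, 13.3 and 14.5 TPM at day 3. Every day 0 library was above every later one. The log2 fold change of day 3 over day 0 was -0.61 (SE 0.11, adjusted p = 4.7e-05), and the fall was in place by day 2. It was -0.30 (SE 0.11, adjusted p = 0.0203) from day 0 to day 1 and -0.42 (SE 0.11, adjusted p = 0.00276) from day 1 to day 2. From day 2 to day 3 it was 0.11 (SE 0.11, adjusted p = 0.483). The fall from day 0 to day 1 was lost without day 0 replicate 3 (adjusted p = 0.0703), day 1 replicate 1 (0.0574) or day 1 replicate 2 (0.0624) and with DESeq2 (0.0708), in a range over its 13 alternatives from 0.00126 to 0.0708.

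*Nprl3* had 8.69, 7.99 and 9.27 TPM at day 0, 8.63, 10.7 and 11.2 TPM at day 1, 13.9, 15.1 and 17 TPM at day 2, and 14.3, 15.8 and 15.1 TPM at day 3. The libraries of days 2 and 3 were all above those of days 0 and 1. It rose by a log2 change of 0.71 from day 0 to day 3 (SE 0.11, adjusted p = 9.7e-06), the largest rise among the members, and by 0.48 from day 1 to day 2 (SE 0.11, adjusted p = 6.8e-04). Its first step, 0.30 from day 0 to day 1 (SE 0.11, adjusted p = 0.0262), was between overlapping libraries and was lost without day 0 replicate 1 (adjusted p = 0.0569) or 2 (0.118), day 1 replicate 2 (0.0962) or 3 (0.107) and with limma (0.103), in a range from 0.0077 to 0.118. The mean TPM ratio *Nprl3*/*Nprl2* thus went from 0.429 ± 0.0224 at day 0 to 1.08 ± 0.0987 at day 3 (SD, n = 3 each), with no overlap between these days.

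*Depdc5*, the subunit through which Gator1 contacts the Rag GTPases, dipped at day 1. It had 20.3, 20.8 and 20.3 TPM at day 0, 14.8, 13.5 and 15.9 TPM at day 1, 23.4, 21.3 and 23.2 TPM at day 2, and 22.6, 23.8 and 24.4 TPM at day 3. The day 1 libraries lay below all others. It fell with a log2 change of -0.48 to day 1 (SE 0.07, adjusted p = 4.2e-06), rose by 0.57 to day 2 (SE 0.07, adjusted p = 4.8e-07) and ended 0.20 above day 0 (SE 0.06, adjusted p = 0.0103). All 3 calls held in every alternative run. The summed TPM of the Gator1 genes was 49.3 ± 1.27 at day 0, 40.5 ± 2.41 at day 1 and 52.7 ± 1.5 at day 3 (SD, n = 3 each).

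**Figure D1:**
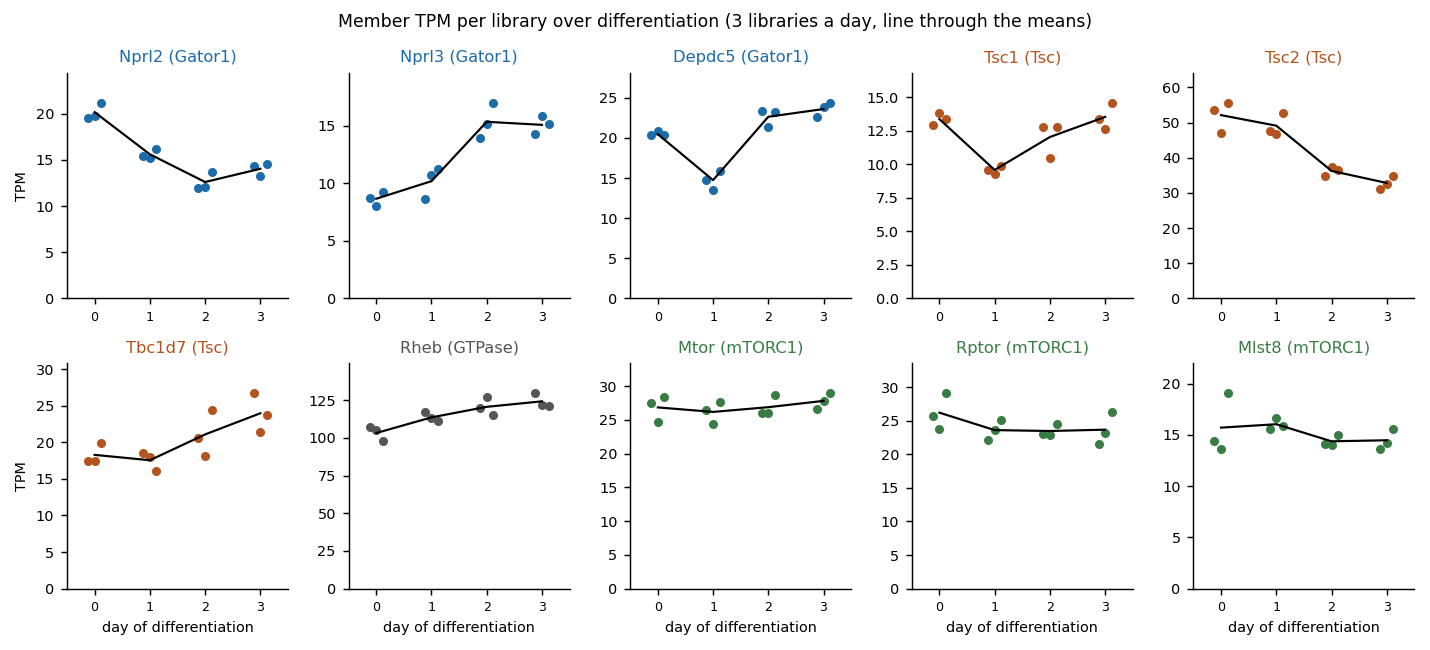
TPM of each member (vertical axis, from 0) against day of differentiation (horizontal axis). Each point is 1 of 3 libraries per day and the line joins the means. *Nprl2* went down from 20.1 to 14 TPM and *Tsc2* from 52.1 to 32.8 TPM, *Nprl3* went up from 8.65 to 15.1 TPM, *Depdc5* and *Tsc1* were lowest at day 1, and the panels of *Mtor* and *Rptor* are nearly level.

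Within the Tsc complex the largest change was that of *Tsc2*, the subunit that switches Rheb off. *Tsc2* had 53.6, 47.1 and 55.7 TPM at day 0, 47.7, 46.9 and 52.8 TPM at day 1, 34.7, 37.5 and 36.6 TPM at day 2, and 31.2, 32.6 and 34.7 TPM at day 3. Days 0 and 1 overlapped, and every library of days 2 and 3 was below them. It fell with a log2 change of -0.75 from day 0 to day 3 (SE 0.07, adjusted p = 6.0e-09), the largest fall among the members, and of -0.55 between days 1 and 2 (SE 0.07, adjusted p = 8.7e-07). Both calls held in every alternative. From day 2 to day 3, where 1 of 10 members passed against 31.5% of all genes (15.9% higher, 15.6% lower), *Tsc2* was that member, with -0.19 (SE 0.07, adjusted p = 0.0372), and the libraries of these days overlapped near 34.7 TPM.

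*Tsc1*, which stabilises Tsc2, did not follow it. Its libraries had 12.9, 13.8 and 13.4 TPM at day 0, 9.56, 9.28 and 9.89 TPM at day 1, 12.8, 10.5 and 12.8 TPM at day 2, and 13.4, 12.6 and 14.6 TPM at day 3. All day 1 libraries were below those of the other days. *Tsc1* fell with a log2 change of -0.41 to day 1 (SE 0.08, adjusted p = 1.2e-04) and rose by 0.22 to day 2 (SE 0.08, adjusted p = 0.0205), and at day 3 its log2 fold change against day 0 was -0.07 (adjusted p = 0.407). The rise to day 2 was lost without day 1 replicate 2 (adjusted p = 0.0734), day 2 replicate 1 (0.12) or day 2 replicate 3 (0.0813) and with DESeq2 (0.0633), in a range from 0.00165 to 0.12. The TPM ratio *Tsc2*/*Tsc1* was 5.13 ± 0.188 at day 1 and 2.43 ± 0.129 at day 3 (SD, n = 3 each), the highest and lowest mean of the 4 days.

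*Tbc1d7*, the third subunit, had 17.5, 17.5 and 19.9 TPM at day 0, 18.6, 18 and 16.1 TPM at day 1, 20.6, 18.2 and 24.5 TPM at day 2, and 26.8, 21.4 and 23.8 TPM at day 3. Only days 0 and 1 against day 3 were free of overlap. Its rise of 0.31 in log2 from day 0 to day 3 (SE 0.13, adjusted p = 0.0387) was lost without day 0 replicate 1 or 2 (adjusted p = 0.115 each), without day 3 replicate 1 (0.195) or 3 (0.0522) and with DESeq2 (0.072), in a range from 0.00773 to 0.195.

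*Rheb* rose early, with 107, 105 and 97.8 TPM at day 0, 117, 113 and 111 TPM at day 1, 120, 127 and 115 TPM at day 2, and 130, 122 and 121 TPM at day 3. No day 0 library overlapped a later one. The log2 fold change was 0.21 at day 1 (SE 0.06, adjusted p = 0.00909) and 0.19 at day 3 against day 0 (SE 0.06, adjusted p = 0.0151). The first held in every alternative, and the second was lost without day 0 replicate 3 (adjusted p = 0.0606) or day 3 replicate 1 (0.0837), in a range from 6.0e-04 to 0.0837. The TPM ratio *Rheb*/*Tsc2* went from 1.99 ± 0.239 at day 0 to 3.81 ± 0.349 at day 3 (SD, n = 3 each).

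*Mtor*, the kinase of mTORC1, had 27.5, 24.6 and 28.4 TPM at day 0, 26.5, 24.4 and 27.6 TPM at day 1, 26, 26 and 28.6 TPM at day 2, and 26.6, 27.8 and 29 TPM at day 3, with overlap between all days and a log2 change of -0.03 from day 0 to day 3 (SE 0.06, adjusted p = 0.656). *Rptor*, the scaffold that brings substrates to the kinase, had 25.7, 23.8 and 29.2 TPM at day 0, 22.1, 23.7 and 25.1 TPM at day 1, 23, 22.9 and 24.6 TPM at day 2, and 21.6, 23.2 and 26.3 TPM at day 3. Its libraries overlapped throughout. Its fall of -0.23 in log2 from day 0 to day 3 (SE 0.08, adjusted p = 0.0105) was lost without day 0 replicate 3 (adjusted p = 0.0814) or day 3 replicate 1 (0.0567) and with limma (0.175), in a range from 0.00179 to 0.175.

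*Mlst8*, a small propeller protein bound to the mTOR kinase domain, had 14.4, 13.6 and 19.1 TPM at day 0, 15.6, 16.6 and 15.9 TPM at day 1, 14.1, 14 and 15 TPM at day 2, and 13.6, 14.2 and 15.6 TPM at day 3. Day 0 replicate 3 stood above all other libraries of the time course, and days 1 and 2 did not overlap. The gene fell from day 1 to day 2 with a log2 change of -0.28 (SE 0.11, adjusted p = 0.0272), a call lost without day 1 replicate 2 (adjusted p = 0.0908), day 2 replicate 1 (0.0572) or 2 (0.0711), with upper-quartile scaling (0.103) and with limma (0.232), in a range from 0.00695 to 0.232. From day 0 to day 1 its log2 fold change of 0.11 (adjusted p = 0.359) passed only without day 0 replicate 3 (0.28, adjusted p = 0.0106), and the -0.19 from day 0 to day 3 (adjusted p = 0.108) only without day 0 replicate 2 (-0.30, adjusted p = 0.0213). The summed TPM of the mTORC1 genes had means between 64.7 and 68.7 over the 4 days.

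Counted by step, 5 of 10 members passed from day 0 to day 1, 2 higher and 3 lower, against 60.9% of all genes tested (30.1% higher, 30.8% lower). From day 1 to day 2, 6 of 10 passed, 3 in each direction, against 62.1% (32.5% higher, 29.6% lower). From day 2 to day 3 the single call on *Tsc2* was lost without any 1 of day 2 replicates 1, 2 and 3 and day 3 replicates 1 and 2 (adjusted p from 0.0552 to 0.157), with DESeq2 (adjusted p = 0.0772), with limma (0.169) and with no count filter (0.0609), and its range was 0.0207 to 0.169.

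**Figure D2:**
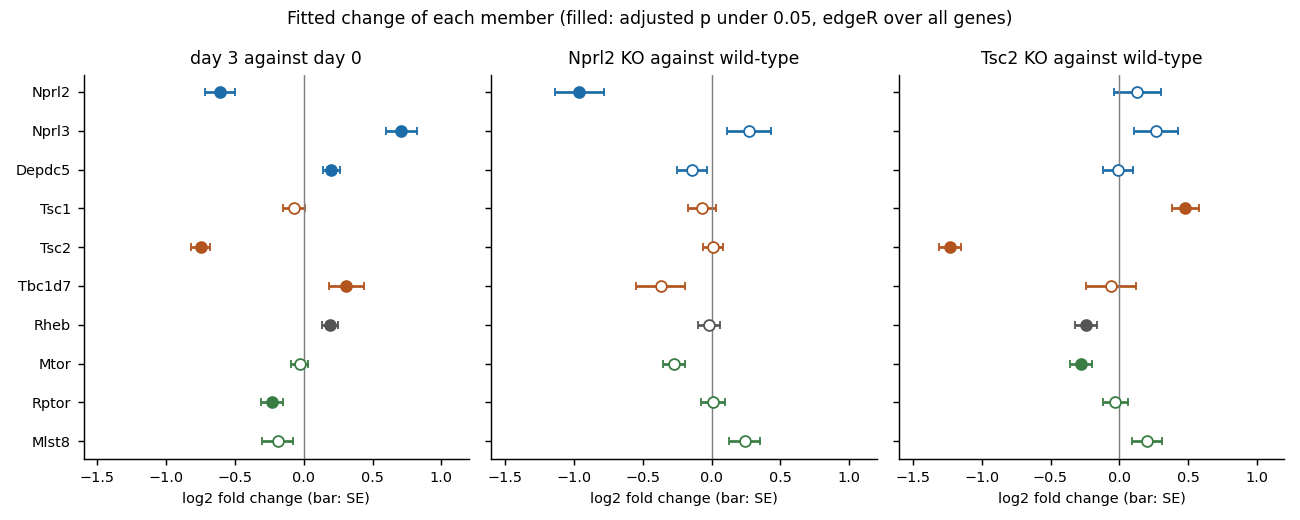
Log2 fold change of each member (vertical axis) for day 3 against day 0, *Nprl2* KO against wild-type and *Tsc2* KO against wild-type (horizontal axis, with SE bars and filled points for an adjusted p under 0.05). The values farthest from 0 are the -1.23 of *Tsc2* in *Tsc2* KO and the -0.96 of *Nprl2* in *Nprl2* KO mESCs, and among the days the -0.75 of *Tsc2* and the 0.71 of *Nprl3*.

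In GFP+ mESCs the first question is how much RNA of each targeted gene was left. *Nprl2* had 16.1 and 17 TPM in wild-type and 8.09 and 8.65 TPM in *Nprl2* KO libraries, with 16.5 and 20.8 TPM in *Tsc2* KO. The *Nprl2* KO libraries were the lowest, without overlap, at estimated counts of 63 and 84 against 129 and 105 in wild-type. The log2 fold change was -0.96 (SE 0.18, adjusted p = 0.00888), a 1.94-fold difference. It passed in 9 of 11 alternatives and was lost without *Nprl2* KO replicate 1 (adjusted p = 0.0555) or 2 (0.0535), in a range from 3.8e-05 to 0.0555.

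*Tsc2* had 45 and 44.9 TPM in wild-type and 45.5 and 41.8 TPM in *Nprl2* KO libraries, with 18.8 and 20.3 TPM in *Tsc2* KO. Only the *Tsc2* KO libraries stood apart, with estimated counts of 795.3 and 928.6. The log2 fold change against wild-type was -1.23 (SE 0.08, adjusted p = 9.7e-07), a 2.35-fold difference, and it held in every alternative. Both targeted genes were thus lowest in the lines named for them and were still counted there. Values were deposited for whole transcripts, from which the exons that reads covered cannot be seen, so the removed exon itself was not examined.

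**Figure D3:**
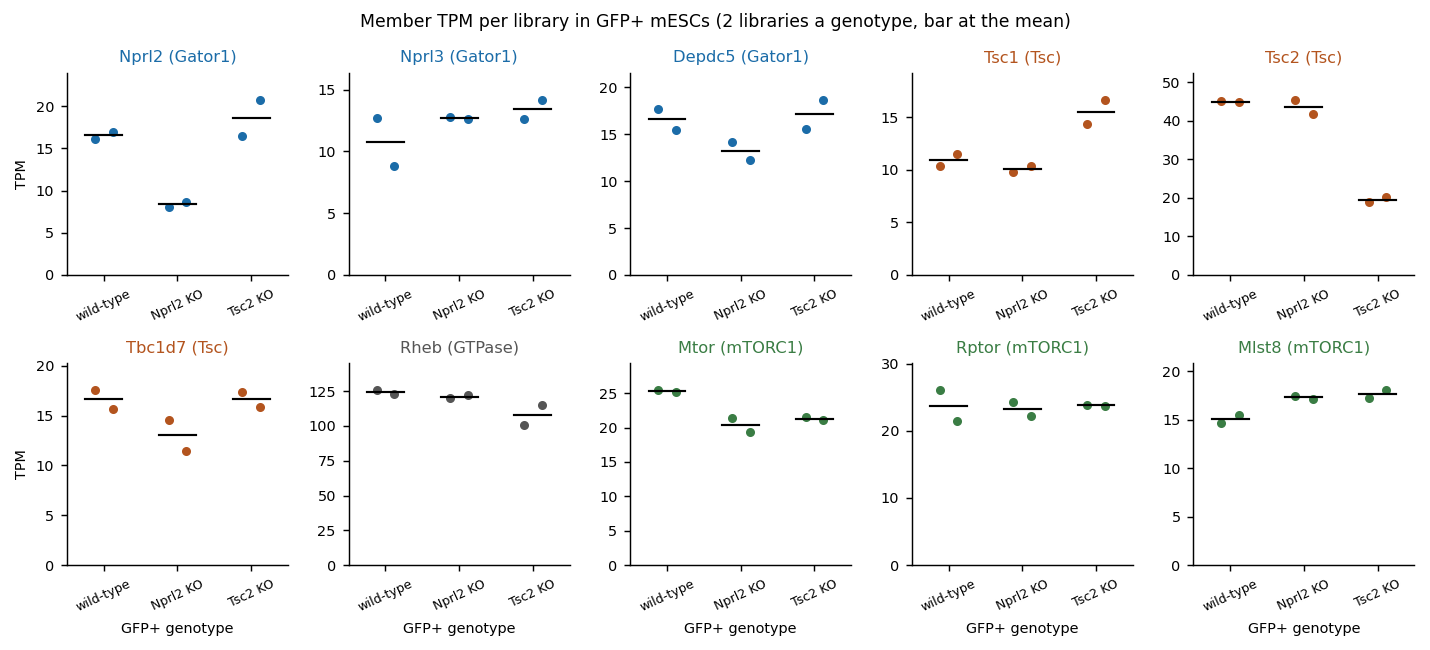
TPM of each member (vertical axis, from 0) in GFP+ libraries of wild-type, *Nprl2* KO and *Tsc2* KO mESCs. Points are the 2 libraries of a genotype and the bars mark their mean. *Nprl2* is lowest in *Nprl2* KO (8.37 TPM) and *Tsc2* in *Tsc2* KO (19.5 TPM), *Tsc1* is highest in *Tsc2* KO (15.6 TPM), and *Mtor* is lower in both KO genotypes than in wild-type.

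In *Nprl2* KO mESCs no member other than *Nprl2* itself passed the test against wild-type, so that 1 of 10 was called against 6.43% of all 13725 genes tested (2.78% higher, 3.66% lower). DESeq2 and limma also called 1 member each, and 3 members were under 0.05 before adjustment in edgeR. Of the other Gator1 subunits, *Nprl3* had 12.7 and 8.78 TPM in wild-type and 12.8 and 12.6 TPM in *Nprl2* KO libraries, with wild-type replicate 2 low (log2 fold change 0.27, adjusted p = 0.375). *Depdc5* had 17.7 and 15.5 TPM in wild-type and 14.2 and 12.2 TPM in *Nprl2* KO libraries. These did not overlap, but the log2 fold change of counts was -0.14 (SE 0.11, adjusted p = 0.518), and that of log2(TPM + 1) in limma was -0.31 (adjusted p = 0.221).

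*Mtor* was the member nearest to the threshold in *Nprl2* KO mESCs. It had 25.5 and 25.1 TPM in wild-type and 21.4 and 19.3 TPM in *Nprl2* KO libraries, again without overlap, and a log2 change of -0.27 (SE 0.08, adjusted p = 0.0625). It passed with no count filter (adjusted p = 0.0376), with the replicate block (0.0103) and without *Nprl2* KO replicate 1 (0.05 after rounding), in a range from 0.0103 to 0.309. *Mlst8* had 14.7 and 15.5 TPM in wild-type and 17.5 and 17.1 TPM in *Nprl2* KO libraries, and its log2 fold change of 0.24 did not pass (SE 0.11, adjusted p = 0.202). The TPM ratio *Mlst8*/*Mtor* was 0.595 ± 0.0288 in wild-type and 0.852 ± 0.0448 in *Nprl2* KO libraries, with 0.831 ± 0.0401 in *Tsc2* KO (SD, n = 2 each), with both KO genotypes above wild-type.

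*Tbc1d7* had 17.6 and 15.7 TPM in wild-type and 14.6 and 11.5 TPM in *Nprl2* KO libraries, without overlap. Its log2 fold change of -0.37 did not pass (SE 0.18, adjusted p = 0.271). *Tsc1*, *Tsc2*, *Rheb* and *Rptor* had log2 fold changes between -0.07 and 0.01. None of these passed, and with 2 libraries per genotype such values do not show that the levels were equal. The TPM of *Tsc1* and *Rheb* did not overlap between these genotypes either. A lack of overlap between 2 and 2 libraries therefore does not by itself mark a change.

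In *Tsc2* KO mESCs 4 of 10 members passed against wild-type, *Tsc1* higher and *Tsc2*, *Rheb* and *Mtor* lower, against 29.1% of all genes tested (14.9% higher, 14.2% lower). The median absolute log2 fold change was 0.22 over the members and 0.26 over all genes. *Tsc1* had 10.4 and 11.5 TPM in wild-type and 14.4 and 16.7 TPM in *Tsc2* KO libraries, so that the partner of the removed gene was higher in both. It rose by 0.48 on the log2 scale (SE 0.10, adjusted p = 0.00411). It passed in 10 of 11 alternatives and was lost without *Tsc2* KO replicate 2 (adjusted p = 0.0598), in a range from 1.5e-04 to 0.0598.

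*Rheb*, the substrate of the Tsc complex, had 126 and 123 TPM in wild-type and 101 and 115 TPM in *Tsc2* KO libraries. Both *Tsc2* KO libraries were below wild-type, replicate 1 by more. The log2 fold change of -0.24 (SE 0.08, adjusted p = 0.0383) was lost in all 4 fits that left out 1 of the libraries compared (adjusted p from 0.0521 to 0.255), with DESeq2 (0.103) and with limma (0.0768), in a range from 0.00919 to 0.255. *Mtor* had 21.5 and 21.1 TPM in *Tsc2* KO libraries, below both wild-type libraries. Its log2 fold change of -0.28 (SE 0.08, adjusted p = 0.016) was lost without wild-type replicate 1 (adjusted p = 0.0592) or 2 (0.062), without *Tsc2* KO replicate 2 (0.126) and with limma (0.0938), in a range from 0.00236 to 0.126.

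The other 6 members did not pass in *Tsc2* KO mESCs. *Nprl3* had 12.6 and 14.2 TPM (log2 fold change 0.27, adjusted p = 0.224), and it passed only without wild-type replicate 1 (0.55, adjusted p = 0.0422). *Mlst8* had 17.2 and 18.1 TPM, above both wild-type libraries, with a log2 change of 0.20 (SE 0.11, adjusted p = 0.175). *Nprl2*, *Depdc5*, *Tbc1d7* and *Rptor* had log2 fold changes between -0.06 and 0.13. The TPM ratio *Tsc2*/*Tsc1* was 4.12 ± 0.294 in wild-type and 4.33 ± 0.414 in *Nprl2* KO libraries, with 1.26 ± 0.0667 in *Tsc2* KO (SD, n = 2 each).

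**Figure D4:**
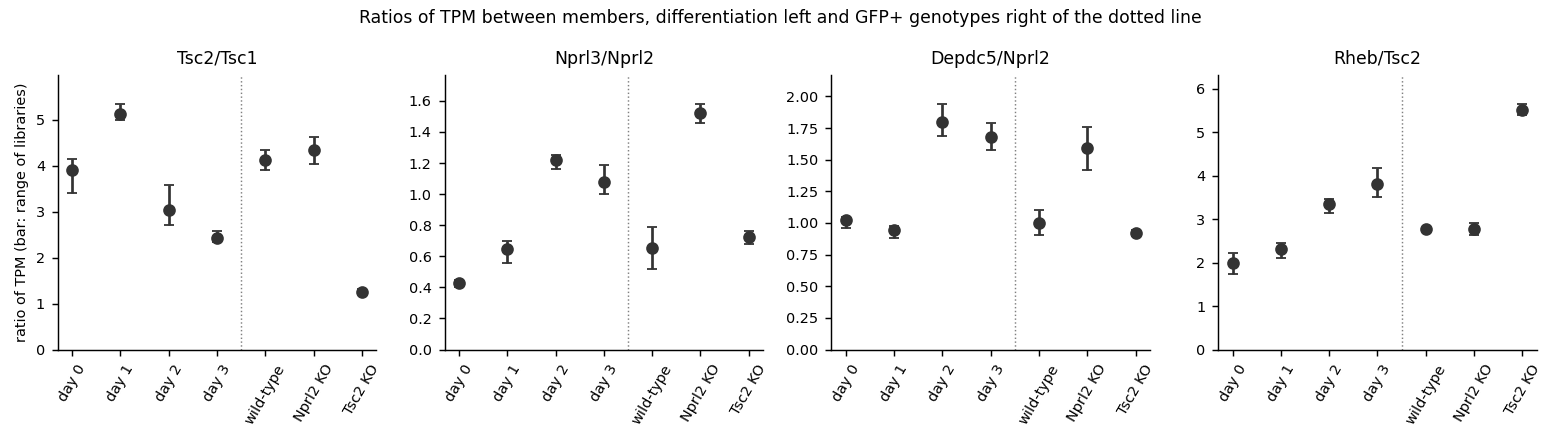
Ratios of TPM between members (vertical axis, from 0) by day of differentiation and by GFP+ genotype (horizontal axis). Points are means over libraries and bars span their range. *Tsc2*/*Tsc1* goes from a mean of 3.91 at day 0 to 2.43 at day 3 and is 1.26 in *Tsc2* KO, and *Nprl3*/*Nprl2* goes from 0.429 to 1.08 and is 1.52 in *Nprl2* KO mESCs.

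The KO genotypes were also compared with each other, and both comparisons with wild-type share the same wild-type libraries. Between *Tsc2* KO and *Nprl2* KO mESCs 4 of 10 members passed, against 34.2% of all genes (17.5% higher, 16.6% lower). They were the targeted genes, *Nprl2* at 1.09 (SE 0.18, adjusted p = 5.1e-04) and *Tsc2* at -1.24 (SE 0.08, adjusted p = 3.1e-07), then *Tsc1* at 0.54 (SE 0.10, adjusted p = 0.0013) and *Rheb* at -0.22 (SE 0.08, adjusted p = 0.0468). The first 3 held in every alternative, and *Rheb* passed in 3 of 11, in a range from 0.0136 to 0.307, and was lost without any 1 of the 4 libraries compared. *Mtor*, lower than wild-type in both KO genotypes, differed between them by -0.02 (adjusted p = 0.888). *Tbc1d7* differed by 0.31 (adjusted p = 0.207).

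Some pluripotency markers moved with these genotypes too. Of 4 such markers, 2 passed in *Tsc2* KO against wild-type, beside 29.1% of all genes. In *Nprl2* KO 1 of the 4 passed, beside 6.43% of all genes. *Pou5f1* and *Sox2* overlapped wild-type in *Tsc2* KO libraries. *Pou5f1* had 1657 to 1853 TPM against 1648 to 1783 TPM, and *Sox2* 349 to 391 TPM against 357 to 358 TPM. In *Tsc2* KO libraries *Nanog*, a naive pluripotency factor, was between 606 and 657 TPM against 307 to 350 TPM in wild-type, and *Zfp42* was between 850 and 885 TPM. Both passed the test, with log2 fold changes of 0.91 and 0.52. In *Nprl2* KO libraries *Zfp42* fell, at 416 to 443 TPM against 580 to 602 TPM in wild-type (log2 fold change -0.43). Of the 8 feeder markers, 6 could be tested in edgeR and limma and all 8 in DESeq2, and 0 passed in the genotype comparisons in any of these tools, while 1 was under 0.05 before adjustment in edgeR, between the KO genotypes. The part of these differences in the values of the members was not tested.

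*Nprl2* and *Tsc2* lie close to other genes. *Tsc2* overlaps *Pkd1*, the polycystic kidney disease gene on the opposite strand, by 699 bases, and *Nthl1*, a DNA glycosylase gene, begins 3 bases beyond its other end. In *Tsc2* KO mESCs *Pkd1* fell with a log2 change of -0.51 (SE 0.14, adjusted p = 0.0165), from 4.58 to 3.28 TPM, and *Nthl1* had 0.37 (adjusted p = 0.0578). In the time course *Pkd1* rose by 0.60 from day 0 to day 3 while *Tsc2* fell. The kit of the GFP+ libraries keeps the strand, but whether reads were counted by strand is not given in the sources used here, so reads from the overlap may have been assigned to either gene. *Nprl2* overlaps *Cyb561d2* by 17 bases, and that gene had a log2 fold change of 0.29 in *Nprl2* KO mESCs (adjusted p = 0.56). In *Tsc2* KO mESCs the log2 fold change of *Cyb561d2* was 0.27, which did not pass either. *Zmynd10*, 1165 bases to the other side, was at most 0.743 TPM in GFP+ libraries and was not tested there. The genes tested on chromosomes 17 and 9 had median log2 fold changes of -0.01 (704 genes, *Tsc2* KO against wild-type) and -0.00 (794 genes, *Nprl2* KO against wild-type).

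The forms of *Depdc5* shown above were divided differently in *Nprl2* KO mESCs. The short form, which lacks the C-terminal part of the protein, made up 51.4% and 47.8% of *Depdc5* TPM in wild-type and 37% and 35.8% in *Nprl2* KO libraries, with 50.5% and 53% in *Tsc2* KO. The *Nprl2* KO libraries were below the others. Their short form had 5.25 and 4.39 TPM against 9.08 and 7.38 TPM in wild-type, whereas the long forms had 8.95 and 7.86 TPM against 8.6 and 8.07 TPM. The lower TPM of the gene in *Nprl2* KO libraries was therefore that of the short form. With 2 libraries against 2 no exact permutation test can reach 0.05, so no p is given and this is a description.

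In the time course the short form was 48.9%, 50.2% and 49.8% of *Depdc5* TPM at day 0, 53.5%, 54.7% and 60.3% at day 1, 54.6%, 53.5% and 44.3% at day 2, and 38.4%, 45.8% and 43.6% at day 3. Day 1 was above day 0 and day 3 below it, without overlap. The long forms had 10.4, 10.4 and 10.2 TPM at day 0, 6.91, 6.11 and 6.3 TPM at day 1, and 13.9, 12.9 and 13.8 TPM at day 3, so the long forms made up most of the dip at day 1 and the return. Within a group the share of any 1 *Depdc5* transcript varied by up to 11.2 percentage points.

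For *Tsc2* the share of transcripts with the 129-base exon was 45.5%, 46.9% and 51.5% at day 0, 73.8%, 70.6% and 49% at day 1, 55.8%, 68.8% and 74.8% at day 2, and 66.1%, 42.9% and 60.8% at day 3. Day 0 was low and even, and later days spread widely and overlapped it, except day 2. In GFP+ libraries it was 69% and 70.6% in wild-type and 80.5% and 77.9% in *Nprl2* KO, with 84.2% and 67.6% in *Tsc2* KO. The 69-base exon was in 4.89% to 27.8% of *Tsc2* TPM over all libraries. Shares within a group ranged by up to 36 percentage points for a *Tsc2* transcript, 83.4 for *Mlst8*, 42.5 for *Tbc1d7*, 33 for *Nprl3* and 26.7 for *Tsc1*. For these genes the division between transcripts was too variable to compare.

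**Figure D5:**
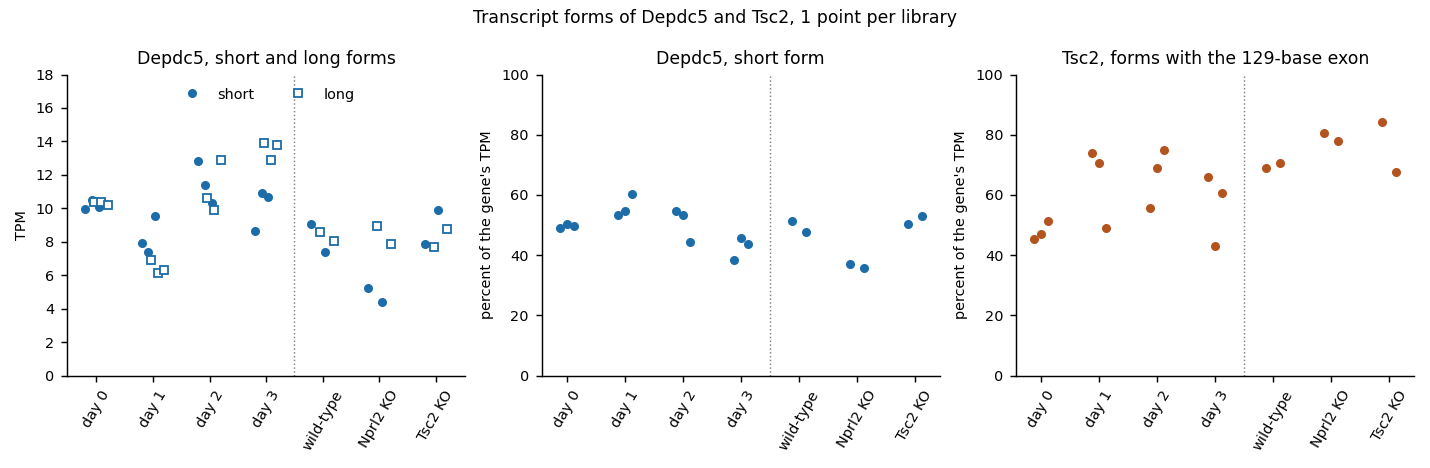
TPM of the short and long forms of *Depdc5*, the short form as a percent of the gene's TPM, and the percent of *Tsc2* TPM with the 129-base exon (vertical axes, from 0), by day and GFP+ genotype (horizontal axis) with 1 point per library. The short *Depdc5* form is at 35.8% to 37% in *Nprl2* KO and at 47.8% to 53% in the other GFP+ libraries.

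Beyond the members, 44 other genes of the pathway were counted. From day 0 to day 3, 17 of them rose and 16 fell, or 75%, close to the 70.9% of all genes. By group, 2 rose and 1 fell of 5 in Gator2, the inhibitor of Gator1 (*Mios* 0.48, *Wdr59* -0.81), and 1 rose and 1 fell of 4 in Kicstor, which tethers Gator1 to the lysosome (*Bmt2* 0.47, *Itfg2* -0.51). Of 5 genes listed with the amino acid sensors 2 rose and 2 fell, with the *Castor* genes apart, *Castor2* at 2.89 and *Castor1* at -0.80. Of 9 Rag and Ragulator genes 5 rose and 2 fell (*Rragd* 1.83, *Lamtor4* -0.34).

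Among 6 other partners of mTOR, 2 rose and 3 fell from day 0 to day 3 (*Prr5l* 1.95, *Deptor* -0.41), and of 8 kinases and GTPases upstream 3 rose and 3 fell (*Pdpk1* -0.66). Of 7 outputs of mTORC1, 2 rose and 4 fell. *Ulk1*, the kinase that starts autophagy, had the largest fall, with a log2 fold change of -2.61 from 132 to 22.9 TPM, and *Rps6kb1*, which encodes S6 kinase, rose by 0.42. The changes of *Castor2*, *Rragd*, *Prr5l* and *Ulk1*, and those of *Wdr59* and *Castor1*, were each larger than that of any of the 10 members. The genes named here are extremes of groups that hold 44 genes in all, so this does not set the members apart.

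In *Nprl2* KO mESCs 3 of the 44 passed against wild-type, or 6.82% beside the 6.43% of all genes, with *Sesn2* (0.56), a leucine sensor induced by stress, and *Eif4ebp1* (0.33), a translational repressor that mTORC1 phosphorylates, higher and *Rragc* (-0.43, adjusted p = 0.0432) lower. In *Tsc2* KO mESCs 6 were higher and 8 lower, or 31.8% beside the 29.1% of all genes. They included *Akt1* (-1.28) among the upstream kinases, *Sesn1* (1.09) and *Castor1* (-1.59) among the sensors, *Rragc* (0.36) and *Rragb* (-0.54) among the Rag genes, *Eif4ebp1* (0.41) and *Eif4ebp2* (-0.34) among the outputs, *Akt1s1* (0.39) among the mTOR partners and *Seh1l* (-0.27) in Gator2.

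Other genes followed the members with the largest changes over the 12 time-course libraries. With *Nprl3* the highest Pearson r of log2 CPM (counts scaled to the library total) among 11890 genes were those of *Erp29* (0.967), *Cplx1* (0.963) and *Reln* (0.963), and with *Tsc2* those of *Cluh* (0.993), *Bckdha* (0.99) and *Tns3* (0.989). These libraries share the days of sampling, so any gene that moves steadily with the day gives a high r, and the values are a description.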

How the data were processed

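The authors deposited a table per library with an estimated count and a TPM for every RefSeq transcript, made with kallisto 0.42.1 (mm10, both per the submitters' processing notes), and a TPM table per gene. TPM is not scaled between libraries. For the 10 members, 180 of 180 deposited gene values matched the sum over transcripts (relative tolerance 0.001). The authors' DESeq2 tables (log2 fold change, p and adjusted p of each KO) were not used.

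Transcripts were assigned to genes through RefSeq GRCm38.p6 (33709 of 34079) or GENCODE M21 (196), which also gave coordinates and sequences. Transcripts without a gene (174) held 1.65% to 3.57% of counts and were left out. Reads shared between transcripts were divided by kallisto. TPM rests on an effective length, which is shorter than the transcript. The median shortening was 179 bases in every time-course library and 169.6 to 227.9 bases in GFP+ libraries. It was largest in *Nprl2* KO replicate 1, against 180.5 bases in replicate 2. The part of this difference in TPM and in transcript shares was not tested.

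Counts were summed per gene, rounded and tested with edgeR 4.0.16 in R 4.3.3 (TMM, filterByExpr, robust quasi-likelihood fit, Benjamini-Hochberg over all genes tested, threshold 0.05), with the 6 GFP+ and the 12 time-course libraries fitted separately. Log2 fold changes in the text are from this fit. A count of 0 allows up to 3 counts, or 0.196 to 0.348 CPM, for counting error only. Alternatives were upper-quartile scaling, no filter, at least 10 counts in every library, DESeq2 1.42.0, limma 3.58.1 on log2(TPM + 1) for genes with a mean of at least 1 TPM, a replicate block, only the groups compared, and each library left out. The fits were tested on simulated data.

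All members are named. From each other list the called genes with the largest rise and fall are named, except 1 gene that is not reported here, with the neighbours of *Nprl2* and *Tsc2* and the 3 genes most like the members with the largest rise and fall. Members and lists were chosen with earlier results of these data known.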

Additional observations from a re-analysis of the deposited data

How the results depend on the processing

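Over all members called in the 7 comparisons, 179 of 196 fits with another setting and 110 of 150 fits that left out 1 library kept the call and its direction, and none turned the direction. The counts of members called moved as follows, and the cause was not tested. *Nprl2* KO against wild-type (1 reported) had 2 with no filter on low counts and 0 to 1 on leaving out 1 library. *Tsc2* KO against wild-type (4 reported) had 3 with DESeq2, 2 with limma and 1 to 3 on leaving out 1 library. *Tsc2* KO against *Nprl2* KO (4 reported) had 3 with no filter, DESeq2, limma, only the groups compared and each library left out. Day 2 against day 1 (6 reported) had 5 with upper-quartile scaling, DESeq2 and limma and 4 to 6 on leaving out 1 library. With DESeq2 and with limma, day 1 against day 0 had 4 and day 3 against day 0 had 6. Day 1 against day 0 (5 reported) had 3 to 5, day 3 against day 2 (1 reported) 0 to 1 and day 3 against day 0 (7 reported) 4 to 7 on leaving out 1 library. Day 3 against day 2 had 0 with no filter, with DESeq2 and with limma. Leaving out a GFP+ library leaves its genotype with 1, which is then taken to vary like the others.

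Members that did not pass changed sign in 46 fits, and the log2 fold changes with the other sign were at most 0.11 in size. With limma on log2(TPM + 1) these were *Tsc2* -0.04 and *Rptor* -0.03 (*Nprl2* KO against wild-type), *Depdc5* 0.04 and *Rptor* 0.01 (*Tsc2* KO against wild-type), *Mtor* 0.06, *Rptor* 0.04 and *Mlst8* 0.03 (*Tsc2* KO against *Nprl2* KO), *Tbc1d7* -0.06 and *Mtor* -0.03 (day 1 against day 0), *Rheb* 0.09 and *Mtor* 0.04 (day 2 against day 1), *Rptor* 0.01 and *Mlst8* 0.01 (day 3 against day 2), and *Tsc1* 0.01 and *Mtor* 0.05 (day 3 against day 0). With upper-quartile scaling they were *Rheb* 0.06 (day 2 against day 1), *Mtor* -0.01 (day 3 against day 2) and *Mtor* 0.01 (day 3 against day 0), and with at least 10 counts in every library *Rheb* 0.01 (day 2 against day 1).

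On leaving out 1 library the ranges were, for *Nprl2* KO against wild-type, *Tsc1* -0.16 to 0.02, *Tsc2* -0.07 to 0.07 and *Rptor* -0.11 to 0.14. For *Tsc2* KO against wild-type they were *Nprl2* -0.03 to 0.28, *Depdc5* -0.11 to 0.09, *Tbc1d7* -0.14 to 0.03 and *Rptor* -0.15 to 0.10, and against *Nprl2* KO *Nprl3* -0.06 to 0.08, *Mtor* -0.10 to 0.07 and *Rptor* -0.11 to 0.03. For day 1 against day 0 they were *Tsc2* -0.09 to 0.05, *Tbc1d7* -0.01 to 0.12, *Mtor* -0.03 to 0.09 and *Rptor* -0.16 to 0.01. For later days they were *Rheb* -0.07 to 0.02 (day 2 against day 1), *Mtor* -0.01 to 0.05, *Rptor* -0.09 to 0.03 and *Mlst8* -0.07 to 0.02 (day 3 against day 2) and *Mtor* -0.10 to 0.01 (day 3 against day 0).

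Replicate numbers were not treated as pairs in the reported fits. Deviations of libraries with the same number correlated at 0.164, 0.133 and 0.0848 between genotypes. With 2 libraries each, values for different numbers are these with the sign turned, so whether the numbers pair GFP+ libraries was not settled. Between days the same numbers gave -0.113 to 0.133 and different numbers -0.199 to 0.221. In the genotype comparisons the replicate block raised the calls over all genes, from 883 to 2072, 3996 to 5255 and 4692 to 5846. With the replicate block, 2 members passed in *Nprl2* KO against wild-type, *Mtor* (adjusted p = 0.0103) besides *Nprl2*, and no call on another member changed.

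Over all genes, the 883 calls in *Nprl2* KO against wild-type became 1667 with no filter, 2072 with the replicate block and 339 to 548 on leaving out 1 library. The 3996 in *Tsc2* KO against wild-type became 2661 without wild-type replicate 1 and 2225 without *Tsc2* KO replicate 2, the 4692 between the KO genotypes became 2974 without *Tsc2* KO replicate 2, and the 4525 of day 3 against day 2 became 2969 without day 2 replicate 2. With limma on TPM the share of calls that were higher went from 51.3% to 62.1% between the KO genotypes and from 52.4% to 62.7% between days 1 and 2.

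With 2 or 3 libraries per group, differences of about the size of the SE given beside each member were not detectable at this depth. Larger ones could also fail to pass in edgeR, such as the -0.27 of *Mtor* in *Nprl2* KO against wild-type (SE 0.08, adjusted p = 0.0625). In that comparison *Nprl2* and *Tbc1d7*, with estimated counts from 63 and 81 upward, had the largest SE (0.18 each).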
